A study of Mus musculus with 3 samples.

Results

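The genes that fix a neuron's fast transmitter were followed in single nuclei of the mouse lateral habenula (LHb), a small epithalamic nucleus. The set held 7 of the 32285 genes counted and was chosen by name. It comprised the vesicular glutamate transporters Slc17a6, Slc17a7 and Slc17a8, the vesicular GABA transporter Slc32a1, the GABA-synthesising enzymes Gad1 and Gad2, and the synaptic vesicle zinc transporter Slc30a3. They were measured in the 592 nuclei, of 603 in all, that the authors annotated as neurons. Sorting selected nuclei that carried KASH-GFP, in which a KASH peptide ties GFP to the outside of the nucleus. The labels name the cells as BNST LHb neurons, where BNST stands for the bed nucleus of the stria terminalis. The sources used here do not say how GFP reached the neurons, nor give the strain and age of the mice.

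The groups were mothers (sexually experienced females, 201 neuronal nuclei), virgin males (204) and virgin females (187). Tissue of 3 mice per group was pooled into 1 library, so differences between groups have no replicate check and were not tested. Square brackets give exact 95% intervals that cover counting error only. They leave out variation between mice and between nuclei. Levels are in CPM, a gene's unique molecular identifiers (UMIs, counted transcripts) per 1000000 UMIs of the same nuclei. The table comes from a 3′ assay of nuclei, in which intronic reads, if they were counted, raise the level of long genes. Levels are therefore compared between nuclei and never between genes.

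Glutamate is loaded into synaptic vesicles by the Slc17a6, Slc17a7 and Slc17a8 proteins (VGLUT2, VGLUT1 and VGLUT3), and possession of one of them is what makes a neuron able to release glutamate. GABA is made from glutamate by the Gad1 and Gad2 enzymes (GAD67 and GAD65) and loaded by Slc32a1 (VGAT), which GABAergic neurons use together. The LHb is known as a mostly glutamatergic nucleus that uses Slc17a6, with few local inhibitory cells. Slc30a3 (ZnT3) loads zinc into glutamatergic vesicles and is best known from the forebrain.

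Neuronal nuclei held 2691639 UMIs in mothers, 2122919 in virgin males and 2718356 in virgin females, with a median of 11898, 9414 and 13181 UMIs per nucleus. No nucleus barcode was shared between libraries. The neurons fell into the authors' clusters 0 to 4. The label LHb did not describe all of them equally: the summed level of 6 LHb markers was 1893 CPM in cluster 1 and 1760 in cluster 4, against 899 to 1173 in clusters 0, 2 and 3. The summed level of 8 thalamic markers, a list that includes Slc17a6 itself, ran the other way, with 8304, 9528 and 11927 CPM in clusters 0, 2 and 3, against 2651 in cluster 1 and 1822 in cluster 4. Pou4f1, a transcription factor of habenular neurons, stood at 27.9 CPM in cluster 1 and 7.73 in cluster 4 and had no UMI in clusters 0, 2 and 3. The clusters were built from the genes of these same nuclei, so differences between them are description.

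Slc17a6 was the transmitter gene seen in most neurons, with a UMI in 524 of 592 nuclei (88.5%), and its levels in the 3 libraries were close. It had 921 UMIs in mothers, 749 in virgin males and 996 in virgin females, or 342 CPM [320, 365], 353 CPM [328, 379] and 366 CPM [344, 390]. The intervals of all 3 libraries overlapped, and the folds were 0.934 [0.853, 1.02] for mothers against virgin females, 0.963 [0.875, 1.06] for virgin males against virgin females and 0.970 [0.880, 1.07] for mothers against virgin males. At least 1 UMI was seen in 180 of 201, 175 of 204 and 169 of 187 nuclei. The 11 nuclei annotated as other cell types, with a median of 4780 UMIs, had none. A count of 0 in 11 nuclei still allows up to 27.3% of nuclei with a UMI (3 of 11), and nuclei that express the gene can be missed at this depth. Thinned to 5000 UMIs per nucleus, the share with Slc17a6 was 74.5% in mothers, 79.6% in virgin males and 76.7% in virgin females.

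**Figure D1:**
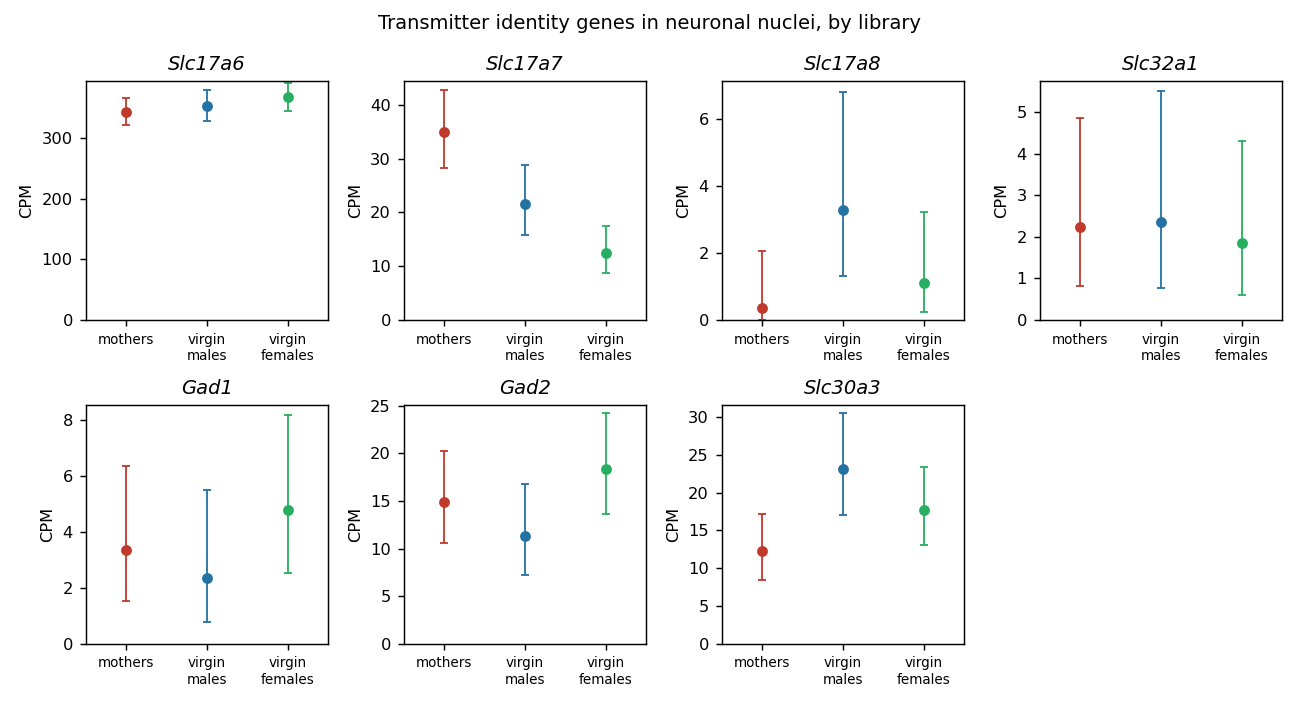
Levels of the 7 genes in neuronal nuclei, in CPM on axes that start at 0, by library (mothers, virgin males, virgin females). Points are sums over a library's nuclei and bars exact Poisson 95% intervals; Slc17a6 lies between 342 and 366 CPM in all libraries, while Slc17a7 stands at 34.9, 21.7 and 12.5 CPM.

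Across clusters Slc17a6 was present throughout, at 1.70-fold more in the highest than in the lowest. Cluster 0 ran at 414 CPM in mothers, 444 in virgin males and 424 in virgin females, and cluster 2 at 395, 451 and 460. These ranges overlapped, and no value of cluster 3 (296, 317 and 354 CPM) reached them. Cluster 1 followed at 279, 253 and 298 CPM, and its top value just passed the lowest of cluster 3. Cluster 4 was the lowest overall at 275, 253 and 204 CPM, again overlapping with its neighbour. By the authors' subtype labels, Slc17a6 stood at 396 CPM [378, 416] in LHb1, 299 CPM [278, 321] in LHb2 and 289 CPM [251, 331] in LHb4. Slc17a6 was seen in 168 of 172 nuclei of cluster 0, 90 of 97 of cluster 2 and 89 of 91 of cluster 3, and in fewer of clusters 1 (116 of 157) and 4 (61 of 75), whose median depths were also the lowest.

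Slc17a7, the vesicular glutamate transporter known from cortical and medial habenular neurons, differed between the 3 libraries beyond counting error. Mothers had 94 UMIs, virgin males 46 and virgin females 34, or 34.9 CPM [28.2, 42.7], 21.7 CPM [15.9, 28.9] and 12.5 CPM [8.66, 17.5]. The level was 2.79-fold [1.87, 4.26] higher in mothers than in virgin females, 1.73-fold [1.09, 2.78] higher in virgin males than in virgin females, and 1.61-fold [1.12, 2.35] higher in mothers than in virgin males. The share of nuclei with a UMI was 23.4% in mothers, 15.2% in virgin males and 9.09% in virgin females, and 11.9%, 8.56% and 4.27% when thinned to 5000 UMIs. The order was thus the same in levels and in shares.

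The clusters split this difference unevenly. Slc17a7 stood at 55.6 CPM [44.2, 69.0] in cluster 3 and 44.8 CPM [34.2, 57.5] in cluster 2, the clusters with the highest thalamic marker sums, against 11.4 in cluster 1, 5.08 in cluster 0 and none in the 75 nuclei of cluster 4. In cluster 3 its levels were close, with 61.1 CPM in mothers, 47.2 in virgin males and 60.4 in virgin females and a fold of 1.01 [0.570, 1.83] for mothers against virgin females. In cluster 2 it stood at 59.4 CPM in mothers, 46.2 in virgin males and 24 in virgin females, which gives 2.47-fold [1.24, 5.38] for the same pair. Cluster 1 held 16 UMIs in mothers, 3 in virgin males and 1 in virgin females, and the mothers' 16 came from 5 nuclei, 7 of them from a single nucleus.

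Cluster make-up moved along with the library values. Cluster 2 held 46 nuclei in mothers, 25 in virgin males and 26 in virgin females, and cluster 3 held 35, 39 and 17. With every library set to the same cluster mix, the log2 fold of mothers against virgin females was 1.02, against 1.48 as found. That of virgin males against virgin females was 0.29, against 0.79 as found, and no longer passed 1.5-fold; it did not pass without cluster 1 either (0.55). Mothers against virgin males gave 0.74 on the same mix, but 0.42 without cluster 1 and 0.47 with nuclei thinned to 5000 UMIs, both short of 1.5-fold. The summed thalamic markers stood at 7475 CPM in mothers, 7521 in virgin males and 6819 in virgin females, and the LHb markers at 1088, 1534 and 1361. The part of these marker levels in the Slc17a7 result was not tested.

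**Figure D2:**
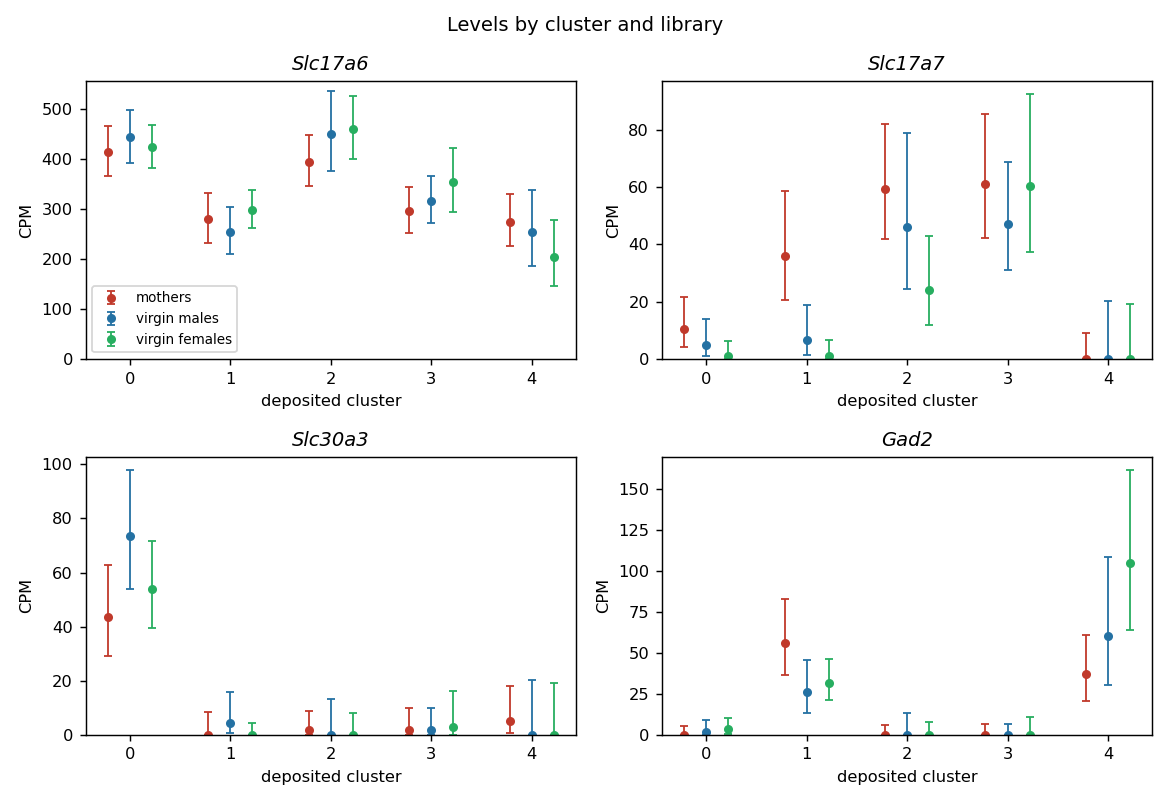
Levels of Slc17a6, Slc17a7, Slc30a3 and Gad2 in CPM (axes start at 0) by the authors' cluster number, with a point per library and exact Poisson 95% intervals. Slc17a7 is highest in clusters 2 and 3, Slc30a3 in cluster 0 (43.7 to 73.4 CPM) and Gad2 in clusters 1 and 4.

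Slc17a7 was mostly found beside Slc17a6. Of the 95 nuclei with Slc17a7, 92 also had Slc17a6 (96.8%), against 86.9% of the nuclei without Slc17a7. The latter were shallower, with a median of 10665 UMIs against 15095. None of the 95 had a UMI of Slc32a1, Gad1 or Gad2, against 7.77% of all neuronal nuclei with one. But 81 of the 95 were in clusters 2 and 3, where no nucleus had a UMI of these genes. For such a UMI the floor of 3 counts is 3.16% of nuclei (3 of 95) and the exact 95% limit 3.81%. Both bound detection, not expression. Within clusters 2 and 3, the 81 nuclei with Slc17a7 had 340 CPM of Slc17a6, against 400 CPM in the 107 nuclei without it, a fold of 0.849 [0.750, 0.961] that went the same way in all 3 libraries. The nuclei with Slc17a7 were deeper, with a median of 15558 UMIs against 11700. Their cluster mix differed as well, with 33 of cluster 2 and 48 of cluster 3, against 64 and 43 without Slc17a7. Slc17a6 stood at 429 CPM in cluster 2 and 318 CPM in cluster 3. Among 52 measured genes of the pathway lists, 7 passed 1.5-fold with an interval that left out 1 (5.82% of all genes did so in this comparison). Erbb4, a neuregulin receptor, stood at 21.9 CPM in nuclei with Slc17a7 and 4.77 without, a fold of 4.58 [1.97, 12.4]. Slc1a6, a neuronal glutamate uptake transporter, stood at 37.2 and 17 CPM, a fold of 2.18 [1.33, 3.68]. Gpt2, a mitochondrial alanine aminotransferase, was lower, with 24.8 CPM in nuclei with Slc17a7 and 46.3 CPM without. In clusters 2 and 3 as a whole, Erbb4 stood at 8.80 and 16.9 CPM and Slc1a6 at 19.8 and 33.2 CPM. Gpt2 stood at 38.9 and 33.2 CPM in the same order. The part of depth and cluster mix in these differences was not tested.

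The 4 nuclei that the authors labelled medial habenula held 4 UMIs of Slc17a7, or 168 CPM [45.9, 431]. Of these, 3 UMIs were the only ones of virgin males in cluster 1. Slc17a8, known from neurons that release glutamate alongside another transmitter, gave 1 UMI in mothers, 7 in virgin males and 3 in virgin females. Each UMI was in a nucleus of its own. All 11 of these nuclei also had Slc17a6, against 88.3% of the nuclei without Slc17a8. Its fold of 2.99 [0.682, 17.9] for virgin males against virgin females was not resolved at this depth, and neither pair that includes mothers reached the 10 UMIs set as a minimum.

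Of the 3 genes of GABA synthesis and loading, Gad2 was the one with counts enough to follow. It had 40 UMIs in 17 nuclei of mothers, 24 UMIs in 8 nuclei of virgin males and 50 UMIs in 18 nuclei of virgin females. Its levels were 14.9 CPM [10.6, 20.2], 11.3 CPM [7.24, 16.8] and 18.4 CPM [13.7, 24.2]. The intervals overlapped in all pairs, with folds of 0.808 [0.519, 1.25] for mothers against virgin females, 0.615 [0.361, 1.02] for virgin males against virgin females and 1.31 [0.773, 2.28] for mothers against virgin males. The last turned to a log2 fold of -0.11 without cluster 1, against 0.39 with it.

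Gad1 had 9 UMIs in 2 nuclei of mothers, 5 UMIs in 3 nuclei of virgin males and 13 UMIs in 6 nuclei of virgin females. Slc32a1 had 6 UMIs in 3 nuclei of mothers, 5 UMIs in 1 nucleus of virgin males and 5 UMIs in 4 nuclei of virgin females. Since so few nuclei carried them, single nuclei set these sums, and no difference between libraries could be resolved. Among the 11 nuclei of other cell types there was 1 Gad1 UMI and none of Gad2 or Slc32a1. The antisense transcript Gad1os overlaps Gad1 and had 17 UMIs, 10 of them in cluster 1, 5 in cluster 4 and 2 in cluster 2. The sources used here do not give the strand setting of the counting, so reads of this pair cannot be told apart.

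All 3 genes lie on chromosome 2 (GRCm38): Gad2 at 22622205 to 22693874, Gad1 at 70553072 to 70602014 and Slc32a1 at 158610767 to 158615748, all on the plus strand. Their RefSeq promoters (GRCm38.p6, plus strand, 250 bases before to 50 after the start) are shown because these genes were found together in some nuclei and apart in others. They cover chr2:22622077-22622376 for Gad2, chr2:70561879-70562178 for Gad1 and chr2:158610508-158610807 for Slc32a1. Capitals mark CG dinucleotides, which read the same on both strands.
Gad2: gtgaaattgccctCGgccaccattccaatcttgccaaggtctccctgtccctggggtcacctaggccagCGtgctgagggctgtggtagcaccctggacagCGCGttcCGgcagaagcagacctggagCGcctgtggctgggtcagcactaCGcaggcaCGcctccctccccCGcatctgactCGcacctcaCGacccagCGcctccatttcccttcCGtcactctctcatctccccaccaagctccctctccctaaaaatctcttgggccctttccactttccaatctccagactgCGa
Gad1: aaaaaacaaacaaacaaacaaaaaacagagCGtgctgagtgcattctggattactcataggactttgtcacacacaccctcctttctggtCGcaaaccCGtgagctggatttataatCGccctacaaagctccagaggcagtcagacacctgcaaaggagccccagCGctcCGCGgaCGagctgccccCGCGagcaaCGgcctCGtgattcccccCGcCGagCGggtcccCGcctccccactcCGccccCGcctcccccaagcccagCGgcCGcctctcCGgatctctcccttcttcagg
Slc32a1: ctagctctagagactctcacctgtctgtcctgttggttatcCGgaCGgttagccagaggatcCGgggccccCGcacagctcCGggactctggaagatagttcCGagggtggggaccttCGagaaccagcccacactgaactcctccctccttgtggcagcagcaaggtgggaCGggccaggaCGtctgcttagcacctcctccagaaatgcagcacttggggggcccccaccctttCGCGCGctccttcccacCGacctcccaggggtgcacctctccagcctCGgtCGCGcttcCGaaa
There were 14 CG in the Gad2 window, 21 in that of Gad1 and 17 in that of Slc32a1, against a median of 7 over 32851 promoters, of which 94.6% held at least 1. As many were held by 36.3%, 24.8% and 31.4% of all promoters, so that a window rich in CG is shared with many genes and does not set these 3 apart.

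GABA genes were confined, with few exceptions, to clusters 1 and 4, and there they formed different combinations. Cluster 4 held 46 Gad2 UMIs in 23 of its 75 nuclei (59.2 CPM [43.4, 79.0]) and none of Gad1 or Slc32a1. Cluster 1 held 64 Gad2 UMIs in 17 of 157 nuclei (36.5 CPM [28.1, 46.6]), 20 of the 27 Gad1 UMIs and all 16 Slc32a1 UMIs. Clusters 2 and 3 had none of any GABA gene in 97 and 91 nuclei, although their median depths of 12639 and 15007 UMIs exceeded those of cluster 1 (9894) and cluster 4 (9431). Gad1os, whose reads may be exchanged with those of Gad1, had 5 UMIs in cluster 4 and 2 in cluster 2. In cluster 0 there were 4 Gad2 and 7 Gad1 UMIs, or 1.85 CPM and 3.24 CPM. By the authors' subtype labels Gad2 stood at 38.0 CPM [30.8, 46.5] in LHb2, 21.0 CPM [11.8, 34.7] in LHb4 and 0.926 CPM [0.252, 2.37] in LHb1.

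Between mothers and the other groups, Gad2 pointed opposite ways in clusters 1 and 4. In cluster 1 it stood at 56.3 CPM in mothers, 26 in virgin males and 31.8 in virgin females, and in cluster 4 at 37.1, 60.6 and 105 CPM. Mothers against virgin females thus gave 1.77-fold [0.985, 3.17] in cluster 1 and 0.354-fold [0.169, 0.728] in cluster 4. The sums rested on 7, 2 and 8 nuclei in cluster 1 and on 10, 5 and 8 nuclei in cluster 4, in the order mothers, virgin males, virgin females. In cluster 4 the share of nuclei with Gad2 was 29.4% in mothers, 21.7% in virgin males and 44.4% in virgin females, and 18.5%, 21.5% and 29.9% when thinned to 5000 UMIs.

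Single nuclei were then sorted by what they held. Of the 592 neuronal nuclei, 498 had a vesicular glutamate transporter and no GABA gene, 29 had both, 17 had a GABA gene alone, and 48 had neither. The last group was shallow, with a median of 5838 UMIs. By library, nuclei with both numbered 11 of 201 in mothers, 7 of 204 in virgin males and 11 of 187 in virgin females, or 5.47% [2.76, 9.58], 3.43% [1.39, 6.94] and 5.88% [2.97, 10.3]. The share with any GABA gene was 8.96% in mothers, 4.90% in virgin males and 9.63% in virgin females, with overlapping intervals. Thinned to 5000 UMIs it came to 5.57%, 4.28% and 7.07%, values that lie closer together, while asking for 2 UMIs of these genes left 4.48%, 1.96% and 7.49%.

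**Figure D3:**
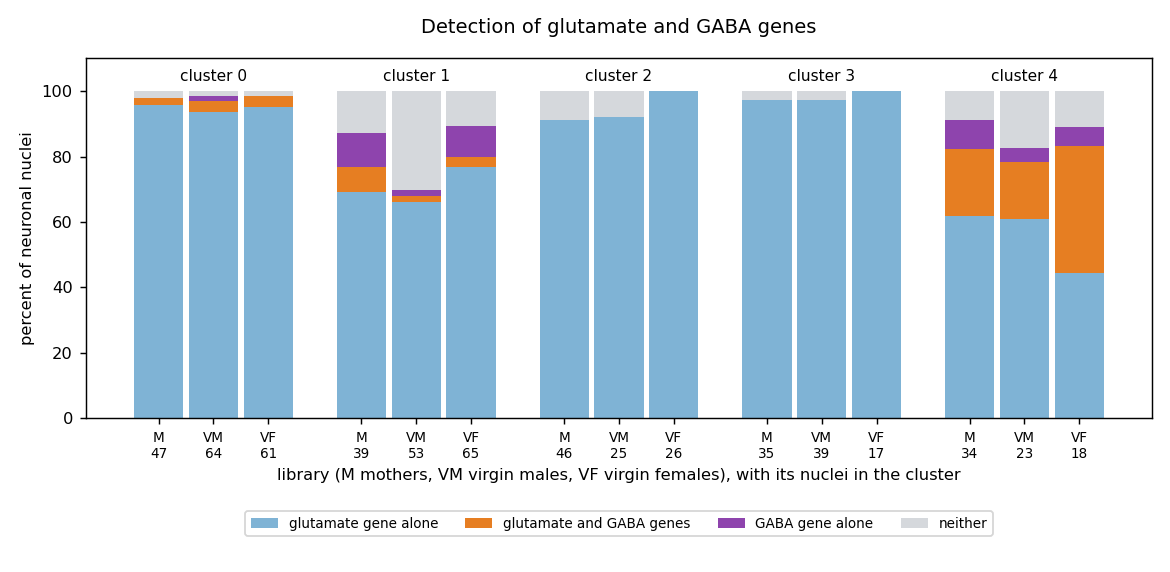
Percent of neuronal nuclei with a glutamate transporter gene alone, with glutamate and GABA genes, with a GABA gene alone and with neither, by cluster and library (M mothers, VM virgin males, VF virgin females; nuclei in each bar below it). Nuclei with both kinds make up 20.6%, 17.4% and 38.9% of cluster 4 and none of clusters 2 and 3.

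Within cluster 4, 18 of 75 nuclei had both kinds of gene (24% [14.9, 35.3]), 7 of 34 in mothers, 4 of 23 in virgin males and 7 of 18 in virgin females. A further 5 nuclei had Gad2 alone. Within cluster 1, 6 of 157 nuclei had both and 11 had a GABA gene alone. Nuclei of cluster 4 with Gad2 ranged from 5176 to 30040 UMIs with a median of 9696, against a median of 9188 in cluster 4 nuclei with no GABA gene. No doublet caller was run, and the sources used here do not say how the authors treated doublets. With the deepest 5% of each library removed, the share with both was 4.74% in mothers, 3.63% in virgin males and 6.21% in virgin females. This step removes nuclei by depth alone and cannot tell doublets from single nuclei, so the part of doublets was not tested.

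The GABA nuclei comprised 11 with at least 2 of the 3 genes, 32 with Gad2 alone and 3 with Gad1 alone. Those with at least 2 were all in cluster 1: 3 from mothers, 1 from virgin males and 7 from virgin females. All 11 had Gad2, 8 had Gad1 and 8 had Slc32a1, and 5 had all 3. Together they held 84 of the 157 GABA UMIs of the neuronal nuclei (53.5%). Each of the 8 nuclei with Slc32a1 was among them. The fullest, from virgin males, had 8 Gad2, 5 Slc32a1 and 3 Gad1 UMIs, and the shallowest, from mothers with 2252 UMIs in all, still had 9 Gad2 and 3 Slc32a1 UMIs.

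These 11 nuclei nearly lacked Slc17a6. They held 1 Slc17a6 UMI in 114732, or 8.72 CPM [0.221, 48.6], against 298 CPM [272, 326] in the 140 nuclei of cluster 1 with no GABA gene. The ratio was 0.0292 [0.000739, 0.164]. The UMI came from virgin females, where the level was 17 CPM in such nuclei and 311 CPM in those without GABA genes. In mothers the values were 0 and 299 CPM, and in virgin males 0 and 272 CPM. Their median depth was 10186 UMIs, against 9744 in the 140 nuclei. The 11 nuclei were picked by their GABA genes and not by Slc17a6.

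In nuclei with Gad2 as the only GABA gene, Slc17a6 was present. In cluster 4 the 23 such nuclei had 58 Slc17a6 UMIs, or 229 CPM [174, 297], against 264 CPM [221, 311] in the 52 nuclei without, a ratio of 0.871 [0.629, 1.19]. By library the levels were 245 and 288 CPM in mothers, 177 and 271 CPM in virgin males, and 227 and 183 CPM in virgin females, with and without Gad2. The direction differed between libraries and all intervals overlapped. In cluster 1 the 6 nuclei with Gad2 alone had 367 CPM [235, 546] of Slc17a6, and 5 of the 6 had a UMI of it. Between the 11 nuclei with at least 2 GABA genes and the 23 of cluster 4, the Slc17a6 ratio was 0.0380 [0.000946, 0.220].

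**Figure D4:**
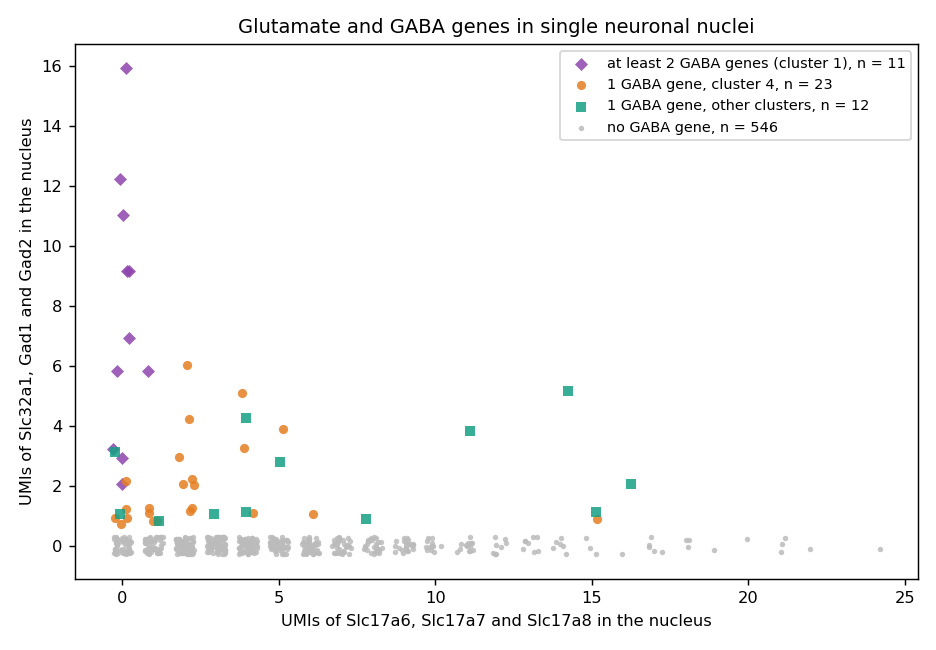
UMIs of the 3 GABA genes (vertical) against UMIs of the 3 vesicular glutamate transporter genes (horizontal) in each of 592 neuronal nuclei, with small random shifts to separate equal values. Nuclei with at least 2 GABA genes (n = 11) lie at 0 or 1 glutamate UMI, while those with 1 GABA gene in cluster 4 (n = 23) spread along both axes.

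**Figure D5:**
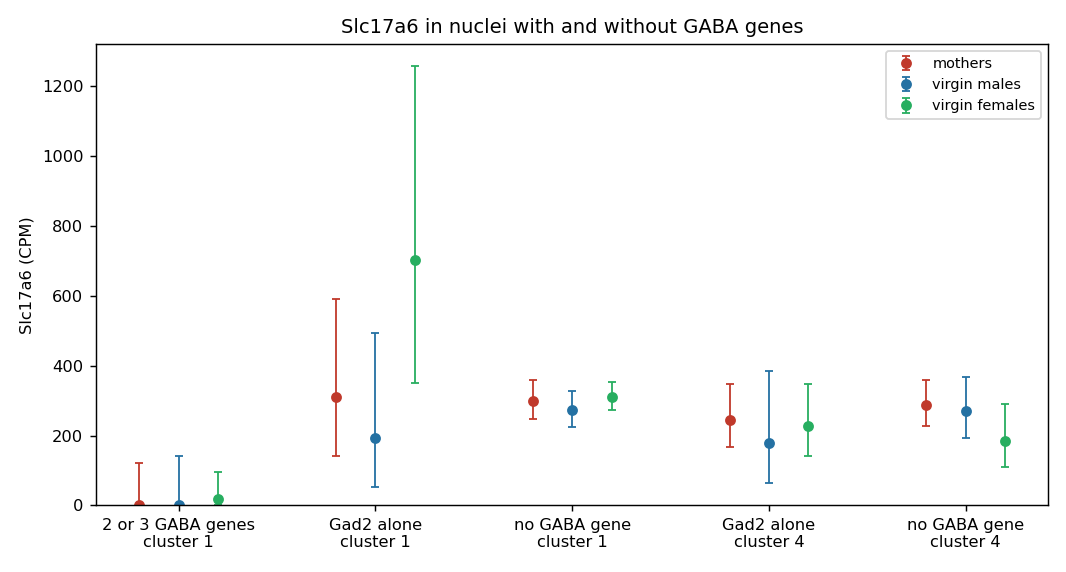
Slc17a6 in CPM (axis from 0) in nuclei with GABA genes and in nuclei of the same cluster without, by library, with exact Poisson 95% intervals. Nuclei with 2 or 3 GABA genes stand at 0, 0 and 17 CPM, below every other class in all libraries.

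The nuclei with GABA genes carried habenular and thalamic markers as well. Summed LHb markers stood at 1412 CPM [1203, 1647] in the 11 nuclei of cluster 1, with 4 of 6 markers seen, against 1907 CPM [1839, 1977] in the cluster's nuclei without GABA genes. Thalamic markers stood at 1368 and 2734 CPM in the same order, and medial habenular markers at 69.7 and 539 CPM. Pou4f1 was absent from the 11 nuclei and had 49 UMIs (31.1 CPM) in the others, a ratio of 0 whose interval reaches 1.07, so that a difference was not resolved at this depth. None of 6 ependymal or choroid markers was seen in the 11 nuclei, against 475 CPM in the others. Nearly all such UMIs of the neuronal nuclei came from 1 library, with 6 in mothers, 758 in virgin males and 4 in virgin females, and 1 of the 11 nuclei was from virgin males. Microglial markers stood at 218 and 218 CPM. The part of these other cell types in the result was not tested. Of the 6 markers of GABAergic neurons, Dlx1 and Dlx6os1, which mark forebrain GABAergic neurons, had no UMI in any neuronal nucleus.

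Of 27 transcription factors known from GABAergic lineages, 2 reached 50 UMIs over all neuronal nuclei, and a few of the sparse ones fell in the 11 nuclei. The following were picked after their values were seen. Gata3, known from GABAergic neurons of midbrain and thalamus, had 4 UMIs among all neuronal nuclei, in 4 nuclei, and all 4 were among the 11. Sox14, known from the same regions, had 3 UMIs in 2 nuclei, both among the 11. Lhx1 was in 3 nuclei of which 2 were among the 11, and Lhx5 in 8 of which 3 were. Meis2 had 19 of its 29 UMIs in 1 of the 11 nuclei. At such counts these are single observations.

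Among list genes found in most of the 11 nuclei were genes of glutamate metabolism and transport. Slc25a12, a mitochondrial aspartate-glutamate carrier, and Glud1, glutamate dehydrogenase, were in 8 of 11. Slc38a1, a glutamine transporter, and Zic1 were in 7, as was Erbb4, and Tcf7l2, a transcription factor of thalamus and habenula, was in 8. Of all 592 neuronal nuclei, Slc25a12 was in 456, Glud1 in 299, Slc38a1 in 437, Zic1 in 328, Erbb4 in 204 and Tcf7l2 in 500. The share in the 11 nuclei was thus no higher for Slc25a12, Slc38a1 and Tcf7l2. It was higher for Glud1, Zic1 and Erbb4. But all 11 nuclei were in cluster 1, while the 592 spanned all clusters. Erbb4 stood at 777 CPM in cluster 1 as a whole, against at most 24 CPM in clusters 0, 2 and 3. In the 11 nuclei, 32 of its 80 UMIs came from 1 nucleus, and Glud1 and Zic1 had 11 and 10 UMIs. A higher share than in the rest of cluster 1 was not tested. Against cluster 1 nuclei without GABA genes, 8 of 57 measured pathway genes passed 1.5-fold with an interval that left out 1, 3 higher and 5 lower, against 7.79% of all genes. Etv1, a transcription factor, was among the lower ones, with 8.72 CPM in the 11 nuclei and 104 CPM in the others, a ratio of 0.0841 [0.00212, 0.475]. Slc18a2, the vesicular monoamine transporter, was higher at 113 and 21.0 CPM, but 9 of its 13 UMIs came from 1 nucleus.

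In cluster 4, nuclei with Gad2 differed from those without in 10 of 43 measured pathway genes, 6 higher and 4 lower, against 6.03% of all genes. Erbb4 stood at 2682 CPM in nuclei with Gad2 and 1270 CPM without, a ratio of 2.11 [1.89, 2.35], and was higher in all 3 libraries. Calb1, the calcium buffer calbindin, stood at 71.2 and 7.64 CPM, a ratio of 9.32 [3.07, 37.9]. It was also higher in all 3 libraries, but had 22 UMIs in cluster 4 as a whole, so each library rests on few counts. Zic4, a zinc finger transcription factor, stood at 127 and 68.7 CPM, again in all 3. Lower in nuclei with Gad2 were Abat, the enzyme that breaks down GABA, with 67.2 and 132 CPM (0.510 [0.281, 0.877]), and Penk, the precursor of enkephalins, with 1 and 18 UMIs. These genes were not used to divide the nuclei, but the ratios pool UMIs over 23 nuclei with Gad2 and 52 without. Their intervals leave out variation between nuclei. For Slc17a6 the interval of the ratio held 1, so that a difference was not resolved.

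Slc30a3 marked a single cluster. It had 33 UMIs in mothers, 49 in virgin males and 48 in virgin females, or 12.3 CPM [8.44, 17.2], 23.1 CPM [17.1, 30.5] and 17.7 CPM [13.0, 23.4]. Cluster 0 held 122 of its 130 UMIs (93.8%) in 68 of 172 nuclei, at 56.4 CPM [46.8, 67.3], against 0.734 to 2.58 CPM in the other clusters. Within cluster 0 it stood at 43.7 CPM [29.3, 62.7] in mothers, 73.4 CPM [53.8, 97.9] in virgin males and 53.8 CPM [39.5, 71.6] in virgin females. Over all neuronal nuclei mothers were lower than virgin males at 0.531-fold [0.331, 0.843], and the number of cluster 0 nuclei moved alongside, with 47 in mothers, 64 in virgin males and 61 in virgin females. With every library set to the same cluster mix the log2 fold was -0.71, against -0.91 as found.

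Of the 75 nuclei with Slc30a3, 73 also had Slc17a6 (97.3%), 6 had Slc17a7 (8%) and 4 had Gad2 (5.33%). In nuclei without Slc30a3 the shares were 87.2%, 17.2% and 7.54%. Cluster 0, which held 68 of the 75 nuclei, had Slc17a6 in 168 of its 172 nuclei. Within cluster 0, the 68 nuclei with Slc30a3 had 441 CPM of Slc17a6 and the 104 without had 414 CPM, a ratio of 1.07 [0.934, 1.22]. Pathway genes called in this comparison numbered 6 of 50 measured, against 4.86% of all genes. Calb2, calretinin, was higher with Slc30a3 (116 and 57.5 CPM, 2.02 [1.48, 2.77]) and Calb1 lower (31.6 and 71.9 CPM, 0.440 [0.282, 0.671]). The zinc transporter Slc30a5 was the other higher gene, with 40.8 and 18.6 CPM. Slc17a7 had 9 UMIs in the nuclei with Slc30a3 and 2 in those without, and mothers gave 7 and 0 of them. The other libraries together gave 2 and 2. The protein-coding gene Dnajc5g overlaps Slc30a3 on the other strand and had 7 UMIs.

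Counted over all members, 1 of the 6 measured genes (Slc17a7) passed 1.5-fold between mothers and virgin females, where 18.1% of 14947 genes did (9.42% higher, 8.72% lower). Between virgin males and virgin females 4 of 7 did (Slc17a7 and Slc17a8 higher, Gad1 and Gad2 lower), against 18.2% of 14662 genes (8.67% higher, 9.49% lower). Only Slc17a7 of these had an interval that left out 1. Between mothers and virgin males 2 of 6 passed (Slc17a7 higher, Slc30a3 lower), against 18.1% of 14699 genes (9.44% higher, 8.64% lower), and both intervals left out 1. The share of genes that passed with such an interval was 6.26%, 6.28% and 5.76% in the same order. Each library enters a pair of these comparisons, so they are not independent of each other. Between clusters, 3 of the 4 with at least 50 UMIs (Slc17a7, Gad2 and Slc30a3) had a highest cluster at least 3-fold above the lowest, where 23.1% of 11467 genes did.

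Other gene lists were set beside the share of all genes that reached 3-fold between clusters, 23.1% of 11467. None of the 9 measured enzymes of glutamate synthesis and breakdown did, a list too short to read this as a trait. Got2, mitochondrial aspartate aminotransferase, ran from 44.0 CPM in cluster 3 to 77.5 CPM in cluster 1. Of 9 measured glutamate and glutamine transporters, 2 passed, which is near the share of all genes. Slc1a2, a glutamate uptake transporter best known from astrocytes, stood at 427, 386 and 298 CPM in clusters 0, 2 and 3, against 51.3 in cluster 1 and 83.7 in cluster 4. Slc25a13, a mitochondrial aspartate-glutamate carrier, did the reverse, at 57.6 CPM in cluster 1 and 30.9 in cluster 4 against at most 1.36 elsewhere.

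Abat, which breaks GABA down, was spread widely, from 59.4 CPM in cluster 2 to 114 in cluster 1. Among zinc transporters other than Slc30a3, none of 6 measured passed, against 23.1% of all genes, again too few to read as a trait. Slc30a9 stayed between 66.7 and 78.6 CPM. Slc17a5, a lysosomal sialic acid transporter of the Slc17 family, stayed between 42.0 and 52.1 CPM.

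Transcription factors and interneuron genes separated the clusters more often. Of measured genes, 10 of 12 factors of glutamatergic lineages and 7 of 7 interneuron genes passed, against 23.1% of all genes. Tcf7l2 stood at 788, 834 and 968 CPM in clusters 0, 2 and 3 and at 316 and 116 CPM in clusters 1 and 4, and Lef1 at 234, 582 and 727 CPM against 40.5 and 16.7. Erbb4 did the opposite, at 777 CPM in cluster 1 and 1730 in cluster 4 against at most 24. Between libraries, the median log2 folds of the 9 pathway lists lay between -0.26 and 0.22 over the 3 pairs, with genes on both sides, and those of all genes between -0.02 and 0.01. For mothers against virgin females, 2 of 13 measured interneuron genes were higher and 2 lower past 1.5-fold with an interval that left out 1, and 2 of 14 factors of glutamatergic lineages were higher and 1 lower, against 6.26% of all genes. One list gene that is not a member was Nr4a2, a transcription factor best known from midbrain dopaminergic neurons. It stood at 12.3 CPM in mothers, 31.1 in virgin males and 35.3 in virgin females. The fold was 0.347 [0.226, 0.520] for mothers against virgin females. Of its 195 UMIs, 161 were in cluster 1, which held 39 nuclei of mothers, 53 of virgin males and 65 of virgin females. The part of cluster make-up in this fold was not tested. Sst, the peptide somatostatin, had 21 UMIs in mothers, 4 in virgin males and 1 in virgin females, all from 6 nuclei.

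Genes whose levels ran most like each member over the 15 combinations of cluster and library were listed by Pearson's r of log2 CPM, a description in which the points share nuclei pools and depth. Rorb (r = 0.95), Camk2n1 (0.93) and Retreg1 (0.93) were nearest to Slc17a6. Syt9 (0.91), Adrb1 (0.90) and Rgs8 (0.90) were nearest to Slc17a7, and Adrb1, a beta-adrenergic receptor, stood at 51.5 CPM in cluster 3 and 32.3 in cluster 2 against at most 12.5 elsewhere. Nearest to Gad2 were Irx2 (0.98), Mtss2 (0.97) and Traf3 (0.97). Irx2, a homeobox factor, had 41.1 CPM in cluster 1 and 48.9 in cluster 4 and no UMI in clusters 0, 2 and 3. Nearest to Slc30a3 were Nptxr (0.98), Col12a1 (0.96) and Fam20a (0.95), each with its highest level in cluster 0.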

How the data were processed

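The authors deposited one table of raw UMI counts (genes by nuclei, 3 libraries) and a metadata table with the library, the cell class, cluster and subtype labels, total UMI count and the percent of mitochondrial UMIs of each nucleus. Per the submitters' processing notes, Cell Ranger 5.0.1 was used with GRCm38 (mm10). The sources used here do not give the strand setting, the use of intronic reads (which raise long genes in nuclei), the filters on nuclei or the doublet treatment.

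The tables share no nucleus names and were joined by total UMIs and number of genes, a pair that was unique for all 603 nuclei; the mitochondrial percent recomputed from the counts matched. UMIs of neuronal nuclei were summed and scaled to CPM. With 1 library per group no statistical test was made. Intervals are exact Poisson (CPM), Clopper-Pearson (shares) and conditional binomial (ratios), at 95%, and 3 counts served as the floor where none was seen. Genes counted as measured had at least 10 UMIs in a pair of libraries, or 50 over all clusters, and a called gene passed 1.5-fold or 3-fold. The lowest cluster was floored at 3 UMIs. Thinned shares are expected values at 5000 UMIs, and 59 shallower neuronal nuclei were left out of them. The computation was tested on simulated data.

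The members, 9 further gene lists and 13 marker classes were chosen with earlier results of these data known. Named genes are the 7 members; up to 4 most abundant genes of each list and those past 1.5-fold with an interval that leaves out 1; the 3 genes nearest to each member with at least 100 UMIs, by Pearson's r of log2(CPM + 10) over 9111 genes; and list genes in most nuclei with at least 2 GABA genes. Other list genes named (Gata3, Sox14, Lhx1, Lhx5, Etv1, Gpt2, Slc1a6 and Slc25a13) were picked after their values were seen. Coordinates are from GENCODE vM21 and promoters from RefSeq (GRCm38.p6). Python 3.11.15, numpy 2.4.6, pandas 2.3.3, scipy 1.17.1, R 4.3.3 and edgeR 4.0.16 (TMM factors alone) were used. Other normalizations, minimum counts, depths, cluster mixes and sets of nuclei were tried as alternatives. Some genes of the lists are not reported here.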

Additional observations from a re-analysis of the deposited data

Results flagged for a closer look

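Gad2 was flagged because its ratio between libraries pointed one way in cluster 1 and the other way in cluster 4. Mothers against virgin females gave 1.77 [0.985, 3.17] in cluster 1, from 56.3 and 31.8 CPM, and 0.354 [0.169, 0.728] in cluster 4, from 37.1 and 105 CPM. Mothers against virgin males gave 2.17 [1.05, 4.73] in cluster 1, from 56.3 and 26 CPM, and 0.613 [0.263, 1.47] in cluster 4, from 37.1 and 60.6 CPM. With 1 library per group, the difference between clusters was not tested. The sums rest on 2 to 10 nuclei each, and 1 nucleus of mothers held 9 of their 25 Gad2 UMIs in cluster 1.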

How the results depend on the processing

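No paired analysis was possible because each group is 1 library and no test was made. Scaling by TMM or median-of-ratios factors moved no count of members past 1.5-fold. Between mothers and virgin females the count of 1 became 2 with no minimum of UMIs, without the 5% of nuclei with most UMIs, without the nucleus richest in the gene, on a common cluster mix, thinned to 5000 UMIs and over all nuclei, and 3 without cluster 1, where Gad2 and Slc30a3 were also lower; Slc17a7 passed each time. Between virgin males and virgin females the count of 4 became 2 when thinned and 2 without cluster 1. Between mothers and virgin males the count of 2 became 1 in both of these. Leaving out cluster 1, nuclei under 2000 UMIs or those labelled medial habenula was chosen after seeing the data. All 187 single folds stayed within their counting interval.

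The shares moved with the detection rule. Asking for 2 UMIs left GABA genes in 4.48% of nuclei in mothers, 1.96% in virgin males and 7.49% in virgin females, and both kinds of gene in 1.99%, 1.47% and 3.74%. Thinned to 2500 UMIs, GABA genes were in 3.35%, 2.35% and 5.39% of nuclei of mothers, virgin males and virgin females, and both kinds in 1.19%, 0.921% and 1.78%. Asking for at least 2 of the 3 GABA genes left 1.49%, 0.490% and 3.74%, and both kinds in 0%, 0% and 0.535%. In these the cause was not tested beyond what the rule itself removes. Members under 30 UMIs (Slc17a8, Slc32a1 and Gad1) are limited by depth.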

Other observations

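Neuronal nuclei without any vesicular glutamate transporter or GABA gene numbered 48, with 14 in mothers, 24 in virgin males and 10 in virgin females. Of these, 28 were in cluster 1, and 16 of the 53 cluster 1 nuclei of virgin males were among them. Their median depth was 5838 UMIs, against 11380 in all neuronal nuclei.

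The 3 nuclei with Gad1 as the only GABA gene were all in cluster 0, and all 3 had Slc17a6 (14, 8 and 4 UMIs). The one from mothers had 5 Gad1 UMIs and was the deepest nucleus of its library, with 35636 UMIs.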
